A study of Homo sapiens with 4 samples.

Results

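The 43 genes described here carry out DNA replication or make the deoxynucleotides it consumes. They were taken as a named list, chosen with earlier results of these data known. The list holds 6 subunits of the origin recognition complex, 9 licensing factors and helicase subunits, 6 helicase activation factors and 7 polymerase and primase subunits. It also holds 6 genes of the sliding clamp and its loader and 5 genes for single-strand binding and Okazaki fragment joining. The last 4 are enzymes of nucleotide synthesis. All 43 were measured, among 18132 genes in all. Each gene was read from 1 probe set, the one with the highest mean over the 4 arrays among those annotated with a single symbol.

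The samples were Hs578T cells, a mesenchymal triple-negative breast cancer line, grown in serum with insulin. The knockdown cells carried a lentiviral shRNA against ELK3, an ETS family transcription factor, kept as a stable knockdown (arrays 1 and 5). The cells they were set against are labelled sh control (arrays 1 and 2). RNA of each sample was hybridised to an Affymetrix PrimeView array, and values are log2 signals normalised by the submitters with RMA. The labels do not say whether an array number stands for a clone, a construct or a culture, so p-values measure the spread between these arrays, which may be technical.

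Before S phase, ORC, CDC6 and CDT1 load the MCM2 to MCM7 ring onto origins, and geminin, the product of GMNN, blocks CDT1 once S phase has begun. CDC45 and the GINS complex then join the ring to form the active helicase, polymerase alpha with primase lays the primers, and polymerases epsilon and delta extend them on the PCNA clamp. Ribonucleotide reductase (RRM1 and RRM2), thymidylate synthase (TYMS) and thymidine kinase (TK1) supply the precursors. Many of these genes are known targets of E2F factors and are read as a sign of proliferation in breast tumours.

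ELK3 itself had signals of 8.09 and 7.92 in the knockdown arrays, against 10.05 and 10.07 in the control arrays (log2 change -2.06, SE 0.090, limma adjusted p = 2.57e-06). The groups stood far apart as a whole, with correlations over 44988 probe sets of 0.996 between the knockdown arrays, 0.997 between the control arrays and 0.898 to 0.900 across groups. All 5 mesenchymal markers checked (VIM, FN1, CDH2, CD44 and AXL) were lower in the knockdown arrays. AXL, at 5.82 and 5.42 there against 12.92 and 12.85 in the control arrays, and FN1, at 8.21 and 7.56 against 14.05 and 14.10, fell most. The luminal and epithelial markers ESR1, PGR, GATA3, EPCAM and CDH1 did not pass in either direction (0 of 5). Of the leukocyte markers 0 of 5 passed, and of the endothelial markers 1 of 3 (PECAM1, lower by a log2 change of -0.58). PTPRC, EPCAM, CDH1, PGR and CD14 lay between 3.60 and 4.52 over all arrays, where the median of all values is 6.78. The cyclin-dependent kinase inhibitor gene CDKN2A stood at 10.98 and 10.90 in the knockdown arrays, against 7.81 and 7.80 in the control arrays, with all 3 of its probe sets higher. The labels give Hs578T for all 4 arrays; whether both groups hold the same cells apart from the knockdown was not tested, and each difference below is between the arrays so labelled. The part of these shifts in the results below was not tested. In bulk RNA, fewer cells in S phase and less RNA per cell cannot be told apart.

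The promoters of the 6 members that the results turn on most are shown first, because enzymes of the same pathway moved in opposite directions. RRM1 and TYMS rose while RRM2 and TK1 fell, POLA1 had the largest rise of the list, and GINS2 had the largest fall outside the nucleotide enzymes. The windows are RefSeq promoters of build GRCh38.p14, from 250 bases before to 50 after a gene start, written 5′ to 3′ on the gene's strand. They lie at chr11:4094435-4094734 (plus strand) for RRM1, chr2:10122318-10122617 (plus) for RRM2, chr18:657403-657702 (plus) for TYMS, chr17:78187003-78187302 (minus) for TK1, chrX:24693668-24693967 (plus) for POLA1 and chr16:85688905-85689204 (minus) for GINS2. Capitals mark E2F cores (TTCCCGC or TTCGCGC or TTGGCGC or TTGCCGC) and ETS cores (CCGGAAG), on either strand. RRM2 and TK1 have 2 windows in the table, and the one with more of these cores is printed.
RRM1: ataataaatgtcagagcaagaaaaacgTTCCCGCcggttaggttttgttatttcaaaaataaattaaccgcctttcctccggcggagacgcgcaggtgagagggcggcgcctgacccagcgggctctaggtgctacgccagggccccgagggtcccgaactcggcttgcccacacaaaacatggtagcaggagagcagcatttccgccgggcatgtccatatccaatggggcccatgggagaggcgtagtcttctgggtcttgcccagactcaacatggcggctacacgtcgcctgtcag
RRM2: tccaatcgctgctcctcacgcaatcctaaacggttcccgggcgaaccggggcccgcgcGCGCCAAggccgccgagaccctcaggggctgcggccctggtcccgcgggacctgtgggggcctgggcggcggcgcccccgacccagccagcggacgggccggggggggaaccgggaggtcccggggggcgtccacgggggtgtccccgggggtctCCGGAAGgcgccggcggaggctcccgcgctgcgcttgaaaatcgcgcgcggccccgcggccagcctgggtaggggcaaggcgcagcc
TYMS: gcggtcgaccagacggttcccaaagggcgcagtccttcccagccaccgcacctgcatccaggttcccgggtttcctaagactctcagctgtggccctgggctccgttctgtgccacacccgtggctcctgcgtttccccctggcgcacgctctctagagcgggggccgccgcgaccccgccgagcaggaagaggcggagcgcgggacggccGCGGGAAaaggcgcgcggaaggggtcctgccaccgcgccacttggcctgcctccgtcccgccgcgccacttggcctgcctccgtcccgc
TK1: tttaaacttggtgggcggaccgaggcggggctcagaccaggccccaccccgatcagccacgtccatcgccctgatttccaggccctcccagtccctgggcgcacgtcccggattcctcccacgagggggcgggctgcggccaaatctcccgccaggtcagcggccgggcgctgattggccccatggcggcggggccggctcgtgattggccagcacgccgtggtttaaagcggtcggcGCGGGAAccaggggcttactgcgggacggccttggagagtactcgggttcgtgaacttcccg
POLA1: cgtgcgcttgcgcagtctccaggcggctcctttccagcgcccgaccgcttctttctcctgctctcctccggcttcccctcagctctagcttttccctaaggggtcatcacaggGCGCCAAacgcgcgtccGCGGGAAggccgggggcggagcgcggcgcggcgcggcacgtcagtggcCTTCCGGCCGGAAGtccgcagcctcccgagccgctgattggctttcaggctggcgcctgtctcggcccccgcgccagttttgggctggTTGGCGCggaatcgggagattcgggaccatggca
GINS2: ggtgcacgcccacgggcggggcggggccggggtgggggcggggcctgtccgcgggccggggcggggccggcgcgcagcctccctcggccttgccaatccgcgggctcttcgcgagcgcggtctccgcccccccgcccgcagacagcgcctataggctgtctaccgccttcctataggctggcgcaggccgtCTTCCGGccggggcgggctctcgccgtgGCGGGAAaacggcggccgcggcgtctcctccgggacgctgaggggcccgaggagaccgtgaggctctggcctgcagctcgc

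RRM1, RRM2, TYMS and TK1 hold 1 E2F core each in the printed window and POLA1 holds 3. RRM2 and GINS2 hold 1 ETS core each, POLA1 holds a pair of abutting ETS cores, and RRM1, TYMS and TK1 hold 0. A promoter window was found for 38 of the 43 members (all but MCM4, MCM5, GINS4, RPA2 and RPA3). Of these 38, 29 (76.3%) held an E2F core, against 21.0% of the 14425 tested genes with a window. Counted by window, the core was in 61.2% of the 49 member windows and in 13.0% of all 35116 windows of the table. An E2F core stood in 17 of the 18 members that rose, in 4 of the 5 that fell and in 8 of the 15 that did not pass. The ETS core was in 7 of 38 members (18.4%, against 16.9% of tested genes), namely in 2 of the 18 that rose, 3 of the 5 that fell and 2 of the other 15. A CCAAT box was in 23 members (60.5%, against 42.4%), and the cell cycle homology motif TTTGAA was in RRM1 alone (2.63%, against 15.9%). These matches are a description of letters: 6 E2F cores overlapped a CCAAT box, and 9 members had more than 1 window, with a match in any of them counted.

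Of the 43 members, 19 rose and 7 fell in the knockdown arrays, and 17 did not pass (adjusted p of 0.05 or more, limma). Over all genes 29.5% rose and 21.3% fell. Every member lay above the median of all values, and among the 10310 genes above it 42% rose and 27.5% fell. The members that rose make up 44.2% of the list, close to that share, and those that fell make up 16.3%. Changes beyond 2-fold were found for 2 members, POLA1 and RRM2, while 17.7% of all genes passed with such a change. Among the 10310 genes above the median of all values, 1336 rose and 1051 fell by that much. The submitters' own selection, which asks for a 1.5-fold change and p under 0.05 without adjustment, held 9 members that were higher and 3 that were lower, or 12 of 43, where it held 31.7% of all genes. The groups did not overlap for 33 of 43 members, against 75.3% of all genes and 8960 of the 10310 genes above that median. The median change of the members was 0.17 on the log2 scale, against 0.12 for genes above the median signal and -0.01 for all genes.

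**Figure D1:**
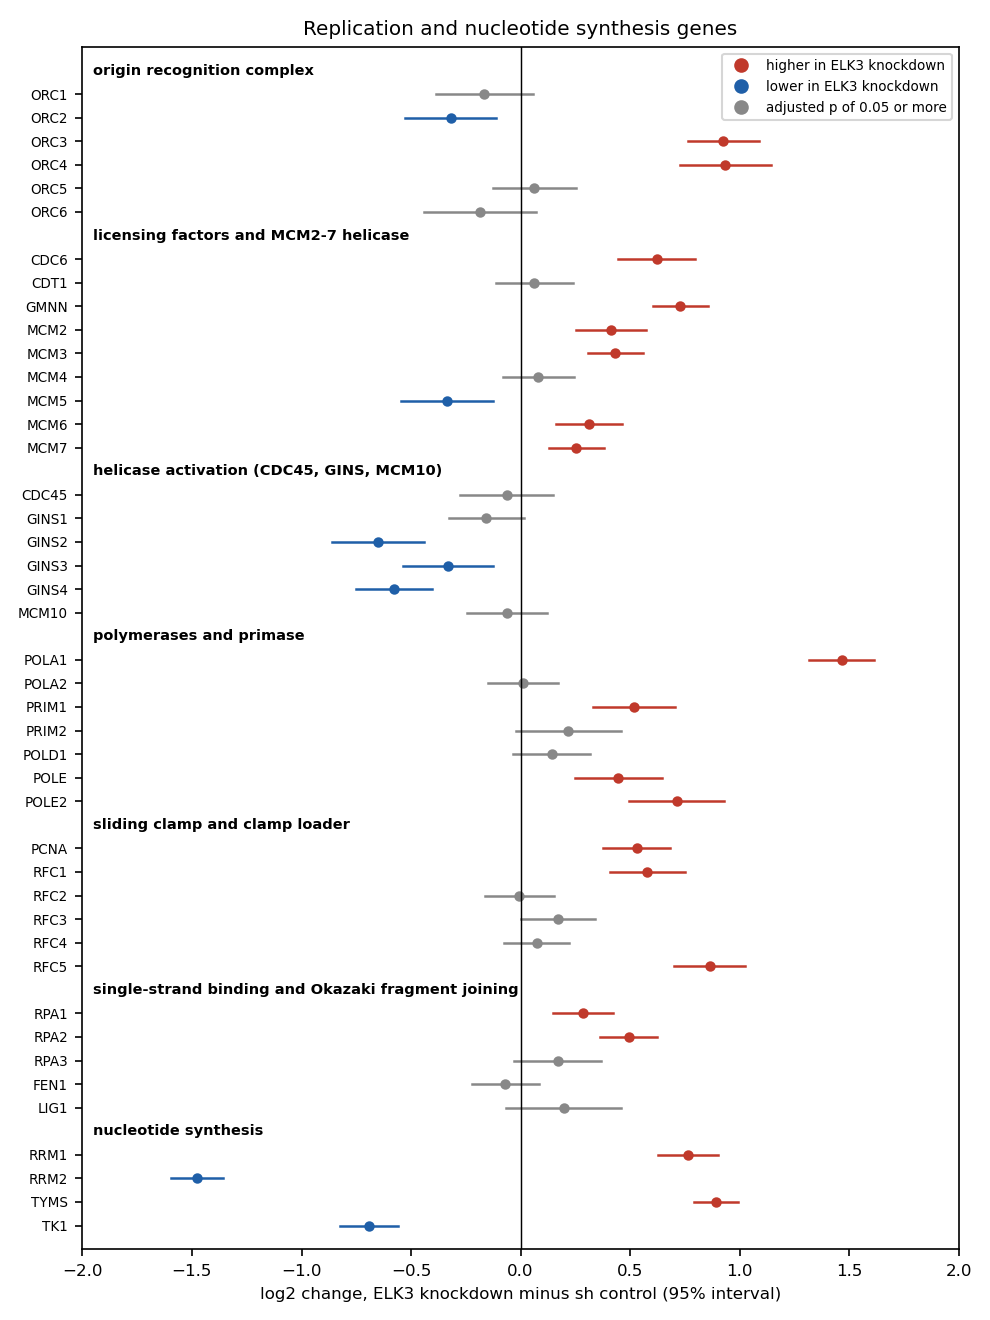
Log2 change of each of the 43 members (knockdown minus control, horizontal axis) by role, with 95% intervals from limma; 2 arrays per group. Of the 43, 19 lie to the right of 0 and pass (red), 7 lie to the left and pass (blue), and 17 do not pass (grey).

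The nucleotide enzymes changed most as a group and in both directions. RRM2, the small subunit of ribonucleotide reductase that holds the radical, had 11.32 and 11.29 in the knockdown arrays, against 12.77 and 12.80 in the control arrays. Its mean was 11.30 ± 0.024 in knockdown and 12.78 ± 0.023 in control cells (SD, n = 2 each), 2.78-fold lower in the knockdown (log2 change -1.48 with SE 0.050, adjusted p = 8.83e-07 by limma). The log2 change was higher than this for 95.3% of all genes. Both RRM2 probe sets fell, the other by 1.55 on the log2 scale.

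RRM1, the large catalytic subunit of the same enzyme, went the other way. It had 11.99 and 11.90 in the knockdown arrays, against 11.19 and 11.17 in the control arrays, which is 1.70-fold higher (log2 change 0.76, SE 0.058, limma adjusted p = 3.39e-05). All 4 of its probe sets rose, by 0.66 to 0.84. The subunits of this enzyme therefore did not move together at the RNA level.

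The enzymes of the thymidine branches also split. TYMS, which makes dTMP from dUMP, had 13.30 and 13.31 in the knockdown arrays, against 12.39 and 12.42 in the control arrays (1.86-fold higher, log2 change 0.89, SE 0.043, limma adjusted p = 4.04e-06). TK1, the salvage kinase of thymidine, had 10.86 and 10.86 in the knockdown arrays, against 11.57 and 11.53 in the control arrays (1.62-fold lower, with a log2 change of -0.69, SE 0.056 and adjusted p = 4.82e-05 by limma). The gap between groups was many times the gap between arrays of a group for both genes. Both probe sets of TYMS rose (0.89 and 1.25) and both of TK1 fell (-0.69 and -0.72).

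**Figure D2:**
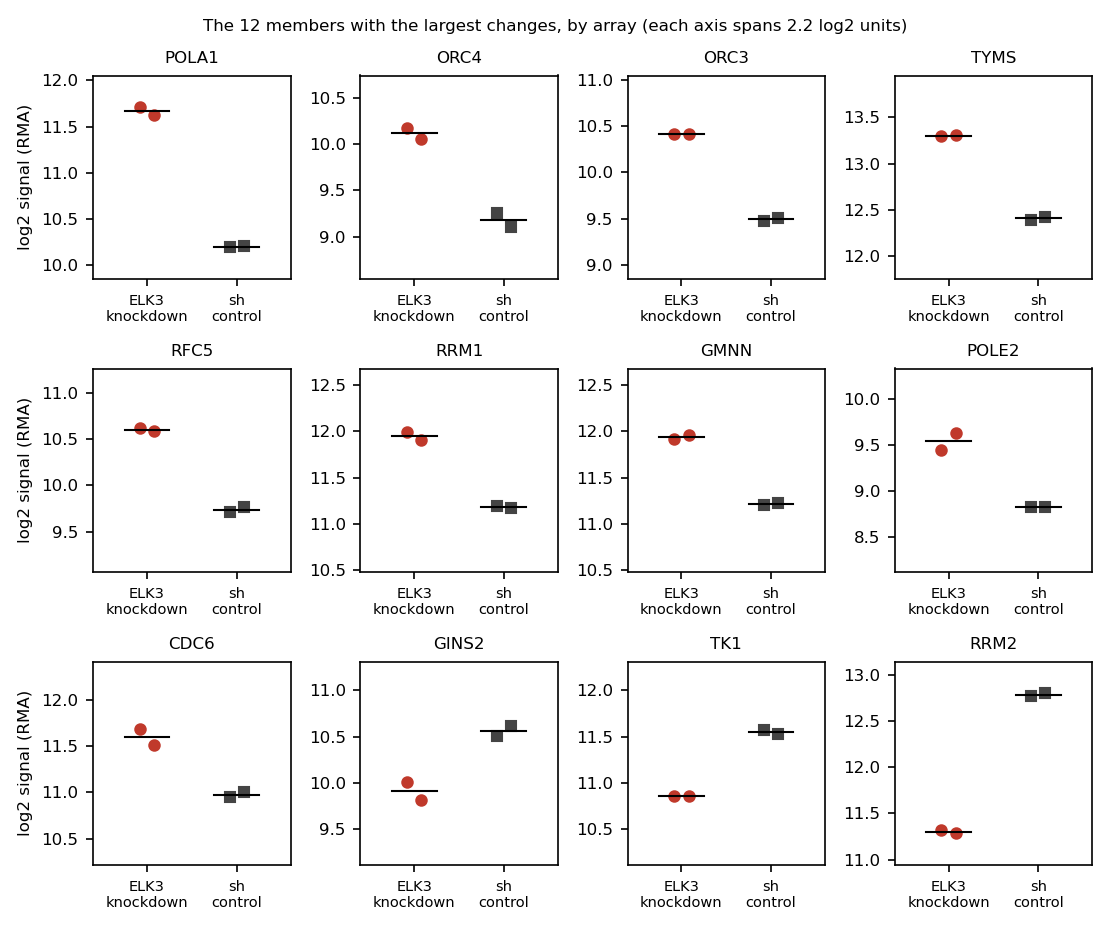
Log2 signal on each array (points) and group mean (line) for the 12 members with the largest changes that passed; each panel spans the same range of log2 units. The groups do not overlap in any panel; POLA1 lies highest above its control arrays (11.71 and 11.62, against 10.20 and 10.20) and RRM2 farthest below (11.32 and 11.29, against 12.77 and 12.80).

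Origin recognition genes changed unequally. ORC3 had 10.42 and 10.42 in the knockdown arrays, against 9.47 and 9.51 in the control arrays (1.90-fold higher, log2 change 0.93, SE 0.068, limma adjusted p = 3.07e-05). ORC4, an ATPase subunit, had 10.17 and 10.06 in the knockdown arrays, against 9.26 and 9.11 in the control arrays (1.91-fold higher, log2 change 0.93, SE 0.087, limma adjusted p = 9.65e-05). The groups did not overlap for either of these subunits of the ORC core.

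ORC2, a partner in that core, had 8.62 and 8.53 in the knockdown arrays, against 8.87 and 8.91 in the control arrays, and fell by 0.32 on the log2 scale (limma adjusted p = 0.0186). ORC5 did not pass at 0.06, with a 95% interval of -0.13 to 0.25. ORC1, the subunit that comes and goes with the cell cycle, stood at -0.17 (limma adjusted p = 0.189), and ORC6 at -0.19. The knockdown arrays of ORC6 differed from each other by 0.31, at 10.65 and 10.34, the widest gap of any member. Of the 7 ORC3 probe sets 6 rose, and all 3 of ORC4 rose.

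Among the licensing genes, 6 of 9 rose and MCM5 fell. GMNN had 11.92 and 11.96 in the knockdown arrays, against 11.20 and 11.22 in the control arrays (1.66-fold higher, log2 change 0.73, SE 0.053, limma adjusted p = 2.91e-05). CDC6, the ATPase that loads the helicase, had 11.68 and 11.51 in the knockdown arrays, against 10.94 and 11.01 in the control arrays (1.54-fold higher, limma adjusted p = 0.000329). CDT1, the loader that geminin inhibits, did not pass at 0.06 (95% interval -0.11 to 0.24). The inhibitor and CDC6 thus rose where CDT1 was not shown to change, although 1 of the 3 CDT1 probe sets rose, by 0.28.

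The MCM ring showed small changes, mostly upward. MCM3 had 11.69 and 11.70 in the knockdown arrays, against 11.27 and 11.27 in the control arrays, and rose by 0.43 on the log2 scale (1.35-fold, limma adjusted p = 0.000388). MCM2 had 11.00 and 11.08 in the knockdown arrays, against 10.58 and 10.67 in the control arrays, a rise of 0.41 (limma adjusted p = 0.00163). MCM6 rose by 0.31 and MCM7 by 0.25, and all probe sets of MCM2 and MCM3 rose.

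MCM5 was the exception in the ring. It had 8.90 and 8.99 in the knockdown arrays, against 9.34 and 9.22 in the control arrays, a fall of 1.26-fold (log2 change -0.34, SE 0.088, limma adjusted p = 0.0155). MCM4 did not pass at 0.08, and its direction rests on the probe set: the other 4 of its 5 probe sets were below 0, with 1 of them called lower at -0.27.

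The helicase activation genes were the only role group in which no member was above 0. GINS2 had 10.01 and 9.81 in the knockdown arrays, against 10.51 and 10.61 in the control arrays (1.57-fold lower, with a log2 change of -0.65, SE 0.088 and adjusted p = 0.000646 by limma). GINS4 had 9.63 and 9.72 in the knockdown arrays, against 10.24 and 10.26 in the control arrays (1.49-fold lower, with a log2 change of -0.58, SE 0.073 and adjusted p = 0.000446 by limma). These genes encode subunits of the same GINS tetramer, and their groups did not overlap. The GINS4 probe set read here carries a name that marks cross-hybridisation, as do 2 dimmer ones that also fell (-0.49 and -0.47). The only GINS4 probe set without such a name read 4.64 to 4.94 on all arrays, below the median of all values, and did not pass (-0.15).

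GINS3, the third GINS gene that fell, had 8.58 and 8.60 in the knockdown arrays, against 8.87 and 8.97 in the control arrays (log2 change -0.33, limma adjusted p = 0.0152). GINS1 had 10.65 and 10.80 in the knockdown arrays, against 10.86 and 10.90 in the control arrays, and did not pass (-0.16, limma adjusted p = 0.118). Its dimmer probe sets both fell, by 0.38 and 0.75 on the log2 scale. CDC45, the partner of GINS on the ring, stood at -0.06 by its brightest probe set and did not pass, while its other probe sets both fell, at -0.75 and -0.78. MCM10, which helps to activate the ring, stood at -0.06 with a 95% interval of -0.24 to 0.12.

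The polymerase and primase genes all had positive changes, and 4 of 7 passed. POLA1, the catalytic subunit of polymerase alpha, had 11.71 and 11.62 in the knockdown arrays, against 10.20 and 10.20 in the control arrays. The mean was 11.67 ± 0.060 in knockdown and 10.20 ± 0.0070 in control cells (SD, n = 2 each), 2.76-fold higher (log2 change 1.47, SE 0.062, limma adjusted p = 2.27e-06). Larger rises were measured for 5.64% of all genes, and POLA1 had a single probe set.

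The partners of POLA1 in the primosome moved less. POLA2, its accessory subunit, did not pass at 0.01, with a 95% interval of -0.15 to 0.17. PRIM1, the catalytic primase subunit, had 10.17 and 10.30 in the knockdown arrays, against 9.69 and 9.74 in the control arrays (1.43-fold higher, limma adjusted p = 0.00115). PRIM2, its large subunit, stood at 0.22 and did not pass.

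Of the extending polymerases, POLE, which copies the leading strand, had 10.28 and 10.15 in the knockdown arrays, against 9.71 and 9.83 in the control arrays (1.36-fold higher, limma adjusted p = 0.00329). POLE2, its accessory subunit, had 9.45 and 9.63 in the knockdown arrays, against 8.83 and 8.82 in the control arrays (1.64-fold higher, limma adjusted p = 0.00047). POLD1, the catalytic subunit of the lagging-strand polymerase, stood at 0.14 and did not pass (95% interval -0.03 to 0.32). The only POLE probe set carries a name that marks cross-hybridisation. The difference between the epsilon and delta genes was not tested.

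PCNA and parts of its loader rose. PCNA had 12.51 and 12.67 in the knockdown arrays, against 12.07 and 12.05 in the control arrays (1.44-fold higher, log2 change 0.53, SE 0.065, limma adjusted p = 0.000376). RFC1, the large loader subunit, had 10.13 and 10.20 in the knockdown arrays, against 9.61 and 9.56 in the control arrays (1.49-fold higher, limma adjusted p = 0.00042). RFC5, a small subunit, had 10.62 and 10.58 in the knockdown arrays, against 9.71 and 9.76 in the control arrays (1.82-fold higher, log2 change 0.86, limma adjusted p = 4.03e-05). Of the 5 loader subunits, RFC1 and RFC5 passed, while RFC2 (-0.01), RFC4 (0.07) and RFC3 (0.17) did not. All 4 RFC3 probe sets were above 0, and 2 dimmer ones were called higher (0.36 and 0.80). The RFC5 probe sets disagreed: 3 rose and 1, whose name marks cross-hybridisation, fell by 0.48 on the log2 scale.

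In the group for single-strand DNA and Okazaki fragments, RPA2 had 11.99 and 11.91 in the knockdown arrays, against 11.45 and 11.46 in the control arrays (1.41-fold higher, limma adjusted p = 0.000241). All 3 of its probe sets rose. RPA1, the large subunit of the same trimer, rose by 0.28 in its brighter probe set (12.19 and 12.11 in knockdown, against 11.82 and 11.91 in control arrays), whose name marks cross-hybridisation. Its dimmer probe set fell, at 7.22 and 7.01 in knockdown against 8.36 and 8.39 in control arrays (log2 change -1.26), so RPA1 has no settled direction. RPA3 (0.17), the flap nuclease gene FEN1 (-0.07) and the ligase gene LIG1 (0.20) did not pass.

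The members were read from 111 probe sets in all. Tested each on its own and adjusted over all 44988 probe sets, 50 rose and 18 fell, where 27.4% of all probe sets rose and 22.5% fell. These shares include many dim probe sets, and none was taken for bright probe sets alone. At the gene level, 29.5% of all genes rose, against 42% of those above the median signal, where every member lay. Of the 30 members with 2 or more probe sets, 25 had all of them on the same side of 0. RFC5 and RPA1 were the 2 members with probe sets called in both directions. The probe sets read for ORC1, ORC4, MCM2, MCM3, MCM4 and GINS4 carry names that mark cross-hybridisation. So do those read for PRIM2, POLE, RFC2, RPA1, RPA2, RRM1 and ELK3. With such probe sets left out, ORC4, MCM2, MCM3, RPA2 and RRM1 kept their direction and call, GINS4 lost its call, and MCM4 and RPA1 reversed.

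**Figure D3:**
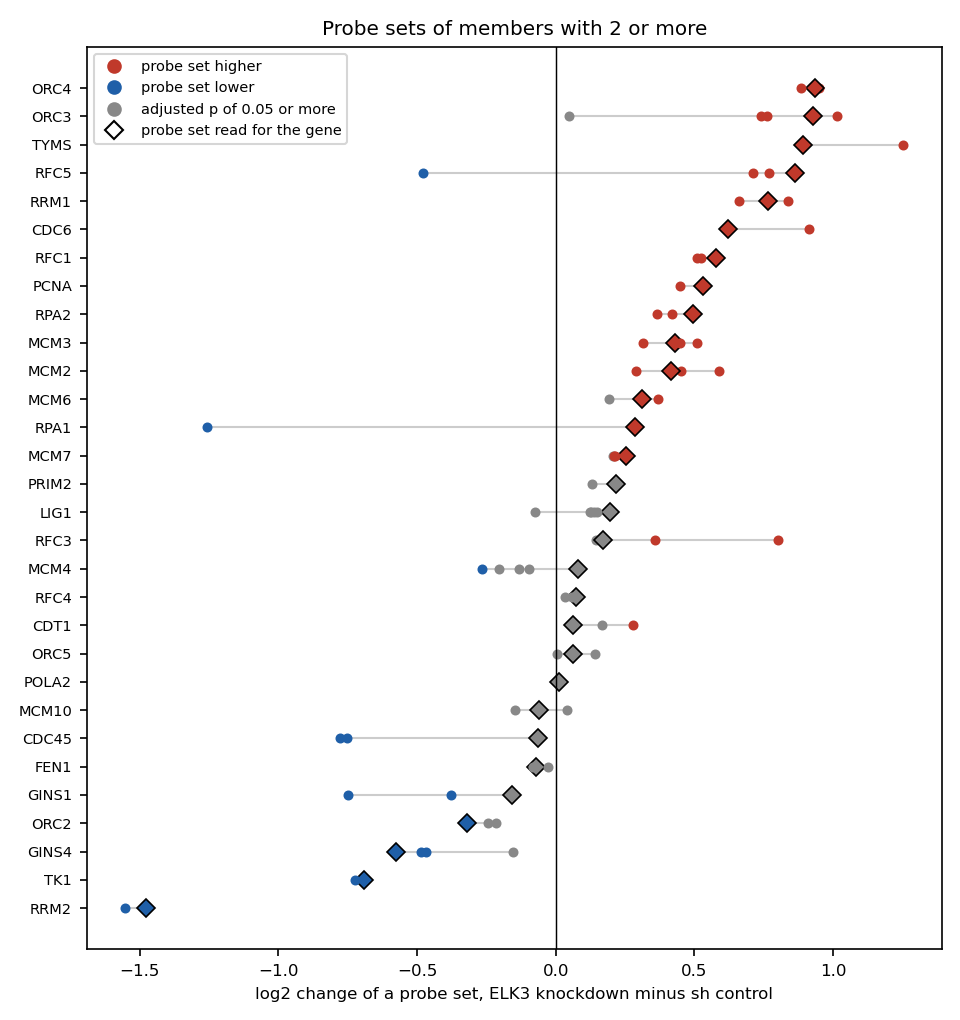
Log2 change (knockdown minus control, horizontal axis) of every probe set of the 30 members with 2 or more; diamonds mark the probe set read for the gene, red and blue mark probe sets that pass. RPA1 (0.28 and -1.26) and RFC5 (0.86 and -0.48) have probe sets called on both sides of 0, and CDC45 and GINS1 have dimmer probe sets that fall further than the one read.

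Some of the smaller calls were lost when an array was left out, at changes of similar size. Leaving out an array leaves 1 in its group, which is then assumed to vary like the other group. Without control replicate 1 or without control replicate 2, ORC2 (-0.34 and -0.30), MCM5 (-0.27 and -0.40) and GINS3 (-0.38 and -0.28) no longer passed, which left 4 members lower. Without control replicate 1, MCM6 (0.28) and RPA1 (0.24) also lost their calls, which left 17 higher. Without knockdown replicate 1, ORC6 and FEN1 passed as lower and PRIM2, RPA3 and LIG1 as higher. Without knockdown replicate 5, GINS1 passed as lower and MCM4 and RFC3 as higher. These gained calls take the spread from the control arrays alone, which lay closer together than the knockdown arrays (median gap over the members 0.046, against 0.092 in the knockdown arrays).

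The changes of the members were set beside those of the genes around them on the chromosome. For each member, the median change was taken over up to 25 neighbouring genes on each side that lay above the median signal. Those medians ran from -0.62 at RRM2 to 0.88 at ORC3, and over the 43 members they correlated with the members' own changes (Pearson r = 0.64, Spearman rho = 0.53, a description without a test, from the same 4 arrays). Of the 26 members that passed, 20 (76.9%) lay on the same side of 0 as their neighbours, close to the 70.2% of the 7156 called genes above the median signal. Over all 10302 such genes the correlation was 0.28 (rho = 0.36).

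Neighbour medians were far from 0 for some members, among them POLA1 and RRM2, which changed most. The neighbours of RRM2 on chromosome 2 had a median of -0.62, with 32 of 47 lower, and those of ORC2 on the same chromosome -0.59. Around GINS4 on chromosome 8 the median was -0.41, around GINS2 on chromosome 16 -0.33, and around POLA1 on chromosome X 0.71. By whole chromosome the median ran from -0.55 on chromosome 8 to 0.45 on chromosome X. The change of the member minus its neighbour median was 0.75 for POLA1, -0.86 for RRM2, 0.05 for ORC3 and 0.01 for POLE. These are plain differences, not changes corrected for position.

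Other members moved against or apart from their surroundings. TK1 fell among neighbours on chromosome 17 with a median of 0.18, a difference of -0.88. RRM1 and TYMS rose beside neighbours with medians of 0.00 and 0.05, and ORC4, POLE2 and MCM2 rose beside neighbours at -0.08, -0.03 and -0.19. The part of chromosomal position in these changes was not tested.

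**Figure D4:**
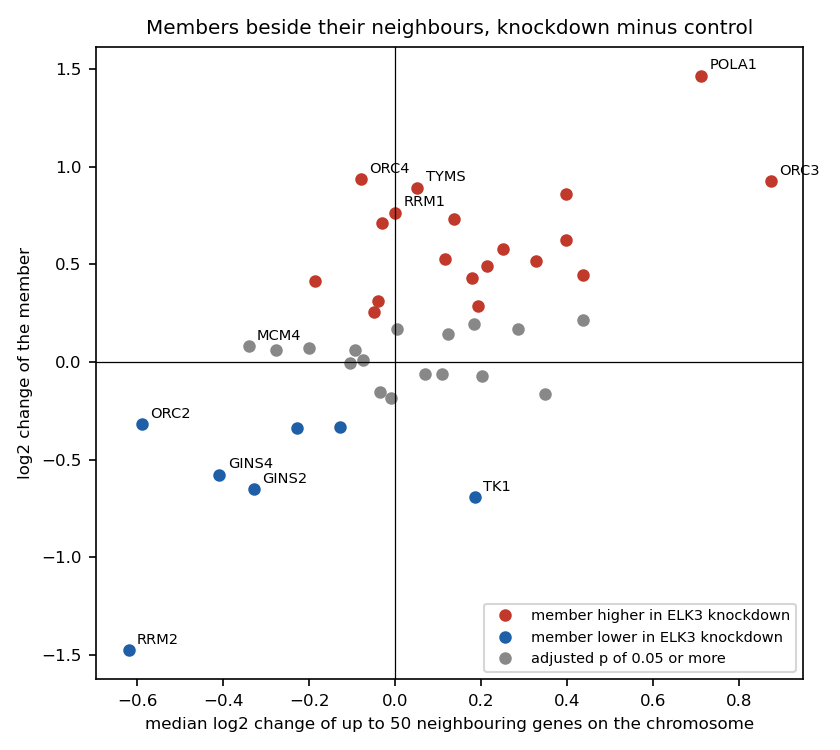
Change of each member (vertical axis, log2, knockdown minus control) against the median change of up to 50 neighbouring genes (horizontal axis); colours give the member's call. RRM2 and GINS4 lie low beside low neighbours, POLA1 and ORC3 high beside high ones, and TK1 lies low beside neighbours at 0.18.

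Other genes of replication and precursor supply, listed with earlier results of these data known, also moved in both directions. Of 76 measured outside the 43 members, 36 rose, 18 fell and 22 did not pass, with a median of 0.17. As shares these are 47.4% and 23.7%, where 42% of genes above the median signal rose and 27.5% fell. The polymerase accessory subunits all passed, POLE3 (0.79) and POLD3 (0.41) higher and POLD4 (-1.22), POLE4 (-0.34) and POLD2 (-0.32) lower. Of their probe sets, 4 of 5 for POLE3 and 1 of 3 for POLD3 were called higher. For origin firing and fork protection, 8 of 19 rose and 4 fell. TIPIN, a fork protection factor, had 10.43 and 10.28 in the knockdown arrays, against 8.99 and 9.10 in the control arrays (2.48-fold higher, limma adjusted p = 1.76e-05), while ATR, the kinase of stalled forks, fell by 1.00 and MTBP by 1.07. MCM9 (1.27) and DBF4B (1.22) were also higher, with 2 of 3 and 3 of 7 probe sets called higher.

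Among alternative clamp loaders, nucleases and topoisomerases, 9 of 13 rose and 2 fell. UNG, which removes uracil from DNA, rose by 1.47 and the topoisomerase gene TOP1 by 1.37, and EXO1 (-0.83) and DSCC1 (-0.78) fell. Of 9 genes for chromatin assembly on new DNA, 4 rose, led by HELLS (0.81), and 2 fell, the maintenance methyltransferase gene DNMT1 (-0.62) and its partner UHRF1 (-0.40). Of the 3 UHRF1 probe sets, 2 were called lower and 1 was above 0.

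Nucleotide supply outside the 4 members was also split. Of 12 genes for deoxynucleotides and folate-linked steps, 5 rose and 3 fell, with the dNTP hydrolase gene SAMHD1 at 1.21, the folate enzyme genes MTHFD1 at 0.77 and MTHFD2 at -0.92, and the thymidylate kinase gene DTYMK at -0.59. RRM2B, also among those 12, did not pass at 0.21 by its brightest probe set. Its direction rests on the probe set: 8 of its 9 were called lower, down to -1.01. Of 18 genes for purine and pyrimidine synthesis, 8 rose and 4 fell. CTPS2, which makes CTP, had 4.38 and 4.97 in the knockdown arrays, against 7.93 and 8.13 in the control arrays (limma adjusted p = 1.07e-05). The knockdown values lie close to those of markers such as CDH1 and CD14, so no fold is given. Its paralogue CTPS1 rose by 0.81. PPAT, the first enzyme of purine synthesis, rose by 1.06.

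Mitosis genes and regulators of the G1/S step were set beside the members. Of 23 mitosis genes, 16 (69.6%) rose and 2 (8.7%, NUF2 and CENPA) fell. Their median was 0.23 and their changes ran from -0.59 to 0.89. Of the 43 members, 44.2% rose and 16.3% fell, and the changes of this longer list ran from -1.48 to 1.47. Among genes above the median signal 42% rose and 27.5% fell, so both lists had a smaller share of falls. The difference between the lists was not tested. Of 30 G1/S regulators, 17 (56.7%) rose and 7 (23.3%) fell. Cyclin D1 (CCND1) was at 9.00 and 8.51 in the knockdown arrays, against 12.43 and 12.43 in the control arrays, and cyclin D2 (CCND2) at 9.61 and 9.49, against 4.45 and 4.31. Among the 8 E2F genes, E2F2 (0.44), E2F3 (1.04), E2F5 (0.71), E2F6 (0.49) and E2F8 (0.75) rose. All probe sets of E2F3, E2F5 and E2F8 were called higher, but only 1 of 2 for E2F2 and 2 of 5 for E2F6. E2F7, a repressor as is E2F8, fell by 1.53 on the log2 scale, and E2F1 (-0.13) and E2F4 (-0.04) did not pass. Of the 6 cyclin-dependent kinase inhibitor genes measured, CDKN1A (1.93), CDKN1B (1.38), CDKN2A (3.14) and CDKN2B (0.58) rose and CDKN2D (-2.18) fell. Of the 3 CDKN2B probe sets, 2 were called higher and 1 stood at -0.31 without passing. CDKN1C also rose, at 9.10 and 10.02 in the knockdown arrays, against 5.20 and 5.92 in the control arrays.

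**Figure D5:**
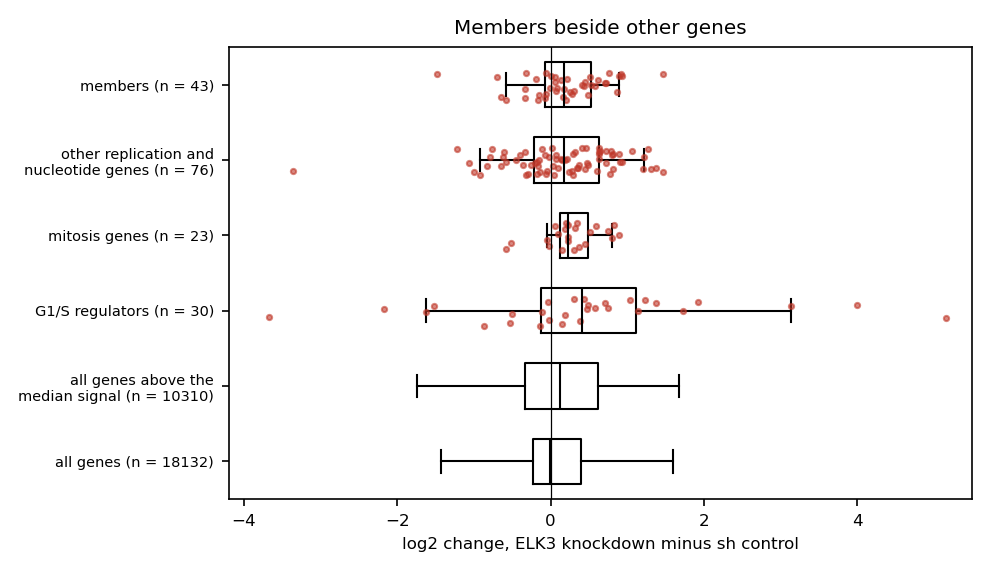
Log2 changes (knockdown minus control, horizontal axis) of the members, the other replication and nucleotide genes, mitosis genes, G1/S regulators, genes above the median signal and all genes; boxes give quartiles, whiskers the 5th to 95th percentile, and points the single genes of the 4 gene lists. The median of the 43 members (0.17) lies between those of all genes above the median signal (0.12) and the mitosis genes (0.23), and the members spread less than the G1/S regulators.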

How the data were processed

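Per the labels, RNA of 2 ELK3 knockdown samples (replicates 1 and 5) and 2 sh control samples (replicates 1 and 2) of Hs578T cells was hybridised to PrimeView arrays. The authors deposited a table of log2 signals for 49293 probe sets, made with RMA per the submitters' processing notes; no other step is recorded in the sources used here, and RMA aligns the signal distributions of the arrays, so a shift of all genes together is not seen. Array medians lay between 6.76 and 6.80. Precision is limited by the number of arrays.

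The platform annotation gave 1 symbol to 44988 probe sets, several to 1832 and none to 2473. Of the probe sets with 1 symbol, the one with the highest mean over the 4 arrays stood for each of 18132 genes. The comparison of knockdown with control arrays used limma 3.58.1 under R 4.3.3 (lmFit, eBayes with an intensity trend, 2 residual and 4.83 prior degrees of freedom), with Benjamini-Hochberg adjustment over all genes and a threshold of 0.05. An exact permutation test of 2 against 2 arrays cannot go below p = 0.333, so none is given. Simulated tables with 200 changed genes among 18132 and independent noise served as a check of the fit. In the arrays 5354 genes rose and 3865 fell, so that setting is unlike these data and gives no error rate for them. Fold changes are 2 to the power of the log2 change.

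Members and lists were chosen with earlier results of these data known. All members are given. Of the other lists, the text names up to 3 genes with the largest rises and up to 3 with the largest falls among those that passed, and further genes and the neighbouring genes were chosen after values were seen. ADSS2, NME1, CDKN2C and PTTG1 were not analysed here. Promoters came from RefSeq (GRCh38.p14) and motifs were searched on both strands. Alternatives covered the normalisation, moderation, probe set choice, dim genes, thresholds and each array left out. Figures were drawn with matplotlib 3.10.9.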

Additional observations from a re-analysis of the deposited data

How the results depend on the processing

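Against 9219 genes called in all, with 19 members higher and 7 lower, the counts changed most without moderation of the variances (5091 genes, 11 members higher and 3 lower) and with the selection of the design text (5753 genes, 9 higher and 3 lower). At an adjusted p under 0.01, 4 members were lower. With each array left out in turn, the genes called ranged from 7719 to 9673, members higher from 17 to 22 and members lower from 4 to 9, the lowest without sh control replicate 1 or 2.

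Of the 26 called members, 12 kept their direction and their call under every alternative fitted per member (moderation, trend, normalisation, probe sets, dim genes and arrays left out, not the other thresholds), and 1, RPA1, reversed. RPA1 was -0.49 by the mean of its probe sets and -1.26 without its cross-hybridising probe set, and MCM4, which had not passed, was -0.12 and -0.27 in the same settings. POLA2 was -0.018 after quantile normalisation and -0.0072 with array medians subtracted. With each array left out, MCM4 ranged from -0.0011 to 0.16, CDC45 from -0.16 to 0.034, POLA2 from -0.023 to 0.045, RFC2 from -0.055 to 0.044 and FEN1 from -0.14 to 0.0039. Without cross-hybridising probe sets, ORC1, RFC2 and POLE had none left to read and were not fitted. GINS4 lost its call in that setting (-0.15), and by the mean of probe sets CDC45 (-0.53), GINS1 (-0.43) and RFC3 (0.37) passed. These probe set changes follow from which probes are read; the cause of the others was not tested.

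No paired analysis was possible because the groups share fewer than 2 replicate numbers. With 2 arrays per group, a change that missed the threshold is not shown to be absent.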
